A study of Mus musculus with 2 samples.

Results

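Genes of glycolysis, lactate handling and the tricarboxylic acid (TCA) cycle were examined in J-RGCs, a type of mouse retinal ganglion cell. The members were 35 genes taken by symbol from a fixed list, of 24015 gene symbols in the count tables. The rule itself used no measured value, but the list was chosen with earlier results of these data known. All 35 were listed in both libraries. There was 1 group, J-RGCs of postnatal day 6 retina. A transgene line specific to J-RGCs marked them with Green Fluorescent Protein, and they were purified with magnetic beads followed by flow cytometry, per the series design. The sources used here do not name the promoter of the line. The group held 2 libraries, A and B, each a pool of 5 to 6 animals from its own litter. No other cell type, age or treatment was present, so isozymes are compared with each other inside these cells and the libraries with each other.

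Glycolysis splits glucose into pyruvate in the cytosol, and lactate dehydrogenase interconverts pyruvate and lactate. Pyruvate that enters mitochondria is turned into acetyl-CoA by the pyruvate dehydrogenase complex and oxidised in the TCA cycle, while the malate-aspartate shuttle carries reducing equivalents from cytosolic NADH into mitochondria. Many steps have several isozymes, each from its own gene. Neurons are known for Hk1, Pfkp and Eno2 among the glycolytic isozymes, and for Ldhb beside Ldha, whose products join into mixed tetramers.

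The gene counts summed to 7916204 in library A and to 13744313 in library B. Of all alignments tallied, these were 26.8% in A and 30.9% in B. Those in no gene made up 54.3% and 47.9%, and those aligned to several places 18.5% and 20.8%. The 12 ganglion cell markers were all detected, at a median of 451 counts per 1000000 gene counts (CPM) in A and 853 in B, and Jam2, the gene of the type, stood at 2344 and 1203 CPM. Summed CPM of other lists in A and B was 40.7 and 40.6 for rods (5 of 7 markers detected), 0.632 and 1.53 for cones (0 of 5, with Opn1mw and Pde6h at 0), 100.05 and 8.22 for bipolar cells (1 of 5), 126 and 108 for amacrine cells (4 of 7) and 14.5 and 30.5 for horizontal cells (3 of 4, with Lhx1 at 0). The sums were 537 and 477 for Müller glia (6 of 7), 5.81 and 2.11 for astrocytes (0 of 5), 306 and 369 for microglia (7 of 9), 412 and 120 for endothelial and mural cells (5 of 8), and 166 and 79.4 for cycling cells (4 of 4). The largest part of the Müller glia sum was Dkk3 (317 and 223 CPM), and the median of that list was 23.0 and 38.7 CPM. Dkk3, Vim and Slc1a3 were higher in A, and Glul, Clu, Apoe and Rlbp1 (0 and 1.60 CPM) in B. Of the erythrocyte and pigment epithelium markers 1 of 4 each was detected, with the globin genes and Rpe65 at 0. These are bulk libraries, so fewer cells of a type and less RNA per cell cannot be told apart, and the part of other cells in the levels below was not tested.

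The isozymes are separate genes of similar sequence, so the sequences that the main pairs share are shown first. A read lying wholly within such a stretch would not tell the pair apart. The longest exact match between the coding sequences of each pair, in GENCODE M21 on GRCm38, was short:
Hk1 and Hk2: agcaatgcctgctacatggaggagatg
Pfkm and Pfkl: catgatggctttgagggtctggccaa
Aldoa and Aldoc: tatgccagcatctgccagcagaatgg
Eno2 and Eno1: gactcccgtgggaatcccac
Ldhb and Ldha: ggtggtggacagtgccta
The hexokinase match of 27 bases lies in coding exon sequence of exon 15 of both genes, at chr10:62275830-62275856 on the minus strand for Hk1 and chr6:82730917-82730943 on the minus strand for Hk2. The enolase match of 20 bases lies in exon 2 of both genes, at chr6:124768267-124768286 on the minus strand for Eno2 and chr4:150239518-150239537 on the plus strand for Eno1. The phosphofructokinase match of 26 bases lies at chr15:98126421-98126446 on the plus strand in exon 14 of Pfkm and at chr10:77992399-77992424 on the minus strand in exon 13 of Pfkl. The aldolase and lactate dehydrogenase matches, of 26 and 18 bases, cross an exon junction. Of the 16 pairs compared, 0 shared a stretch of 50 bases or more. The counts were made on mm9, and these GRCm38 positions were used for the sequences only.

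Of the 35 members, 34 had at least 1 CPM in both libraries, where 46.8% of all listed genes did, and 12 had at least 100 CPM in both, where 6.53% of all genes did. The member below 1 CPM was Eno1. The members' counts together made up 0.370% (A) and 0.379% (B) of the gene total. Levels of different genes are compared as length-scaled levels, reads per summed exon length scaled to a total of 1000000 over all genes with a length. On that scale 26 of the 35 members exceeded the median detected gene (21.7 in A and 28.4 in B) in both libraries. The highest by mean ± SD (n = 2 libraries) were Pgam1 at 487 ± 178, Aldoa at 475 ± 35.9, Ckb at 396 ± 90.8, Gapdh at 356 ± 16.8 and Dld at 321 ± 102.

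**Figure D1:**
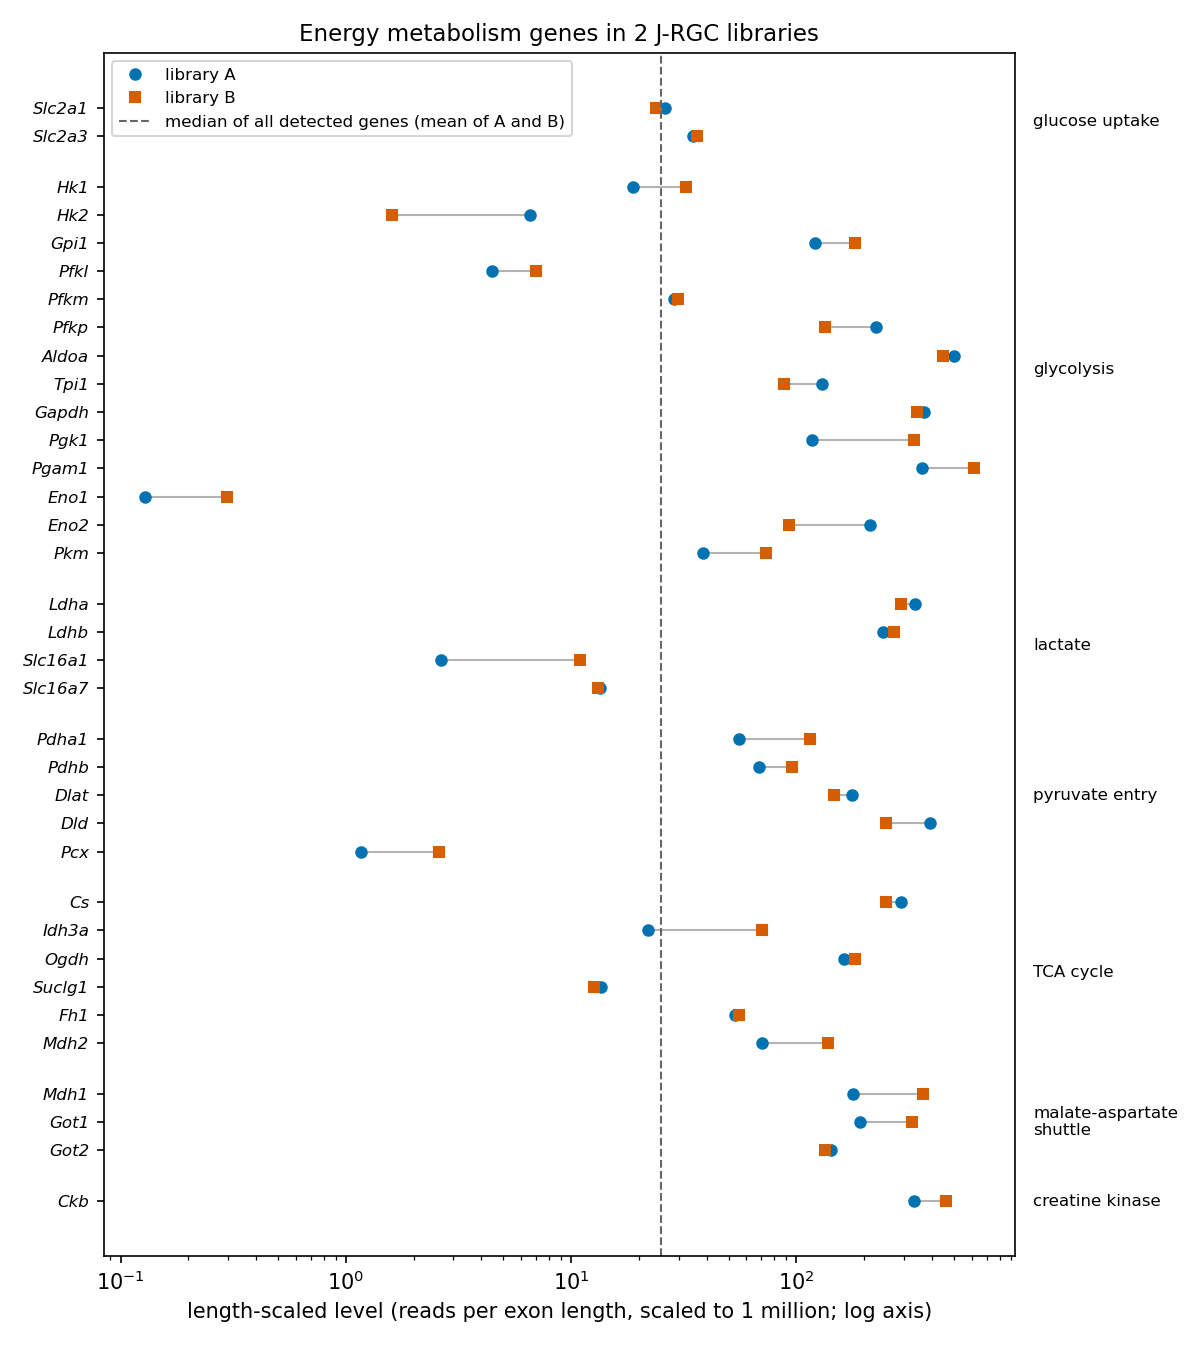
Length-scaled level (log axis) of the 35 members in library A (circles) and library B (squares), by role, with the median detected gene dashed. Eno1 lies far to the left at 0.128 and 0.297, and Pgam1, Aldoa and Ckb lie among the points farthest to the right.

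The neuronal glucose transporter gene Slc2a3 stood at 46.1 CPM in A and 47.7 in B, and Slc2a1, the other main transporter gene, at 16.8 and 15.2. Per length Slc2a3 exceeded Slc2a1 by 1.42-fold (95% interval 0.544 to 3.69), which did not separate them, while without the length correction they were separated (log2 1.55, interval 0.17 to 2.93). Intervals here cover counting error and edgeR's trended dispersion of each gene, and a pair is called separated where the interval excludes a ratio of 1. They were not adjusted over the 16 pairs, of which 10 were separated. Under every alternative run 5 of the 10 stayed separated in the same direction, namely Pfkp over Pfkm, Pfkp over Pfkl, Aldoa over Aldoc, Eno2 over Eno1 and Ckb over Ckmt1.

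Hexokinase phosphorylates glucose, and Hk1 was the main gene of the step. Its counts were 29.4 CPM in A and 50.3 in B, against 7.20 and 1.75 CPM for Hk2. Hk2 was low in both libraries, and higher in A. Per length Hk1 exceeded Hk2 by 7.49-fold (95% interval 2.64 to 21.3), by 2.84-fold in A and 19.7-fold in B. In library A alone the log2 ratio of 1.51 was not separated from 0 (interval -0.60 to 3.62), so the pair rests on B. Hk1 took 73.7% and 91.3% of the summed length-scaled level of the step, and Hk2 25.8% and 4.53%.

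Phosphofructokinase, the committed step, was dominated by Pfkp. Pfkp stood at 555 CPM in A and 327 in B, Pfkm at 17.4 and 18.1, and Pfkl at 5.43 and 8.51. Pfkp exceeded Pfkl by 31.0-fold per length (95% interval 10.4 to 92.0) and Pfkm by 5.96-fold (2.19 to 16.2), and it took 87.3% and 78.5% of the step's summed length-scaled level. Pfkm over Pfkl was 5.20-fold (1.71 to 15.8), a call that ended without the length correction (log2 1.38) and in library B alone (log2 2.09, interval -0.16 to 4.33). Gpi1, the isomerase before this step, stood at 142 and 215 CPM.

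The triose steps held the glycolytic members with the highest length-scaled levels, Pgam1, Aldoa and Gapdh. Aldolase Aldoa stood at 266 and 239 CPM and exceeded Aldoc by 7.92-fold per length (95% interval 3.19 to 19.7), with 86.3% and 89.9% of the summed length-scaled level of its step. Tpi1, which interconverts the triose phosphates, stood at 65.7 and 44.3 CPM. Gapdh, the dehydrogenase of the pathway, stood at 278 and 259 CPM. Pgk1, phosphoglycerate kinase, stood at 48.4 CPM in A and 136 in B, and Pgam1, phosphoglycerate mutase, at 131 and 222. Of these members Pgk1 differed the most between the libraries. Pgam2 had 0 counts in A and 36 in B, and Pgam1 took 100% and 97.3% of the step.

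Enolase counts were mostly of Eno2, the neuronal isozyme, with a smaller part of Eno3, the muscle isozyme. Eno2 stood at 183 CPM in A and 80.0 in B. Eno1 had 1 count in A and 4 in B, which is 0.126 and 0.291 CPM, while the 2 counts and 19 counts of its copy Eno1b were 0.253 and 1.38 CPM. Per length Eno2 exceeded Eno1 by 555-fold with a 95% interval of 151 to 2045. With the exact counting interval alone, the fold was 1654 in A (296 to 65385) and 314 in B (122 to 1156), so the size of the fold is poorly fixed. Only 27.8% of the 50-base stretches of Eno1 were absent from every other annotated gene. With the number of such stretches as the length, the copy-free length, and all counts kept, the fold was 97.5. No read was restricted to these stretches, so only the divisor changed. That value cannot show how many Eno1 reads were set aside as aligned to several places. Eno2 took 82.4% and 85.3% of the step's summed length-scaled level, and Eno3 17.6% and 14.5%. Pkm, pyruvate kinase, stood at 35.4 and 66.8 CPM, with 97.8% and 98.0% of its step, and its splice forms could not be told apart from counts per gene.

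**Figure D2:**
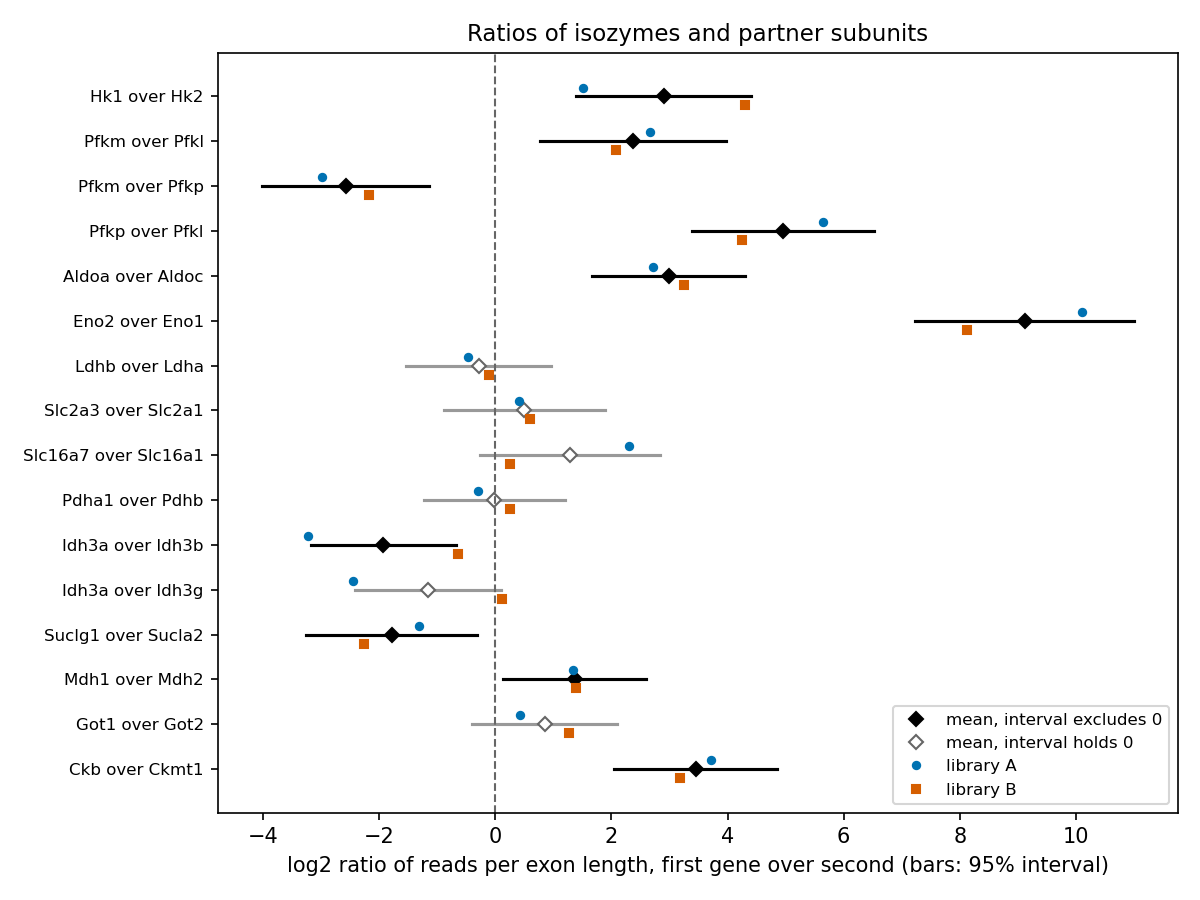
Log2 ratio of reads per exon length, first gene over second, for 16 pairs of isozymes or partner subunits: diamonds give the mean with a 95% interval, filled where it excludes 0, and circles and squares give libraries A and B. The enolase pair lies farthest to the right, at 555-fold, and Ldhb over Ldha, at 0.820, holds 0 inside its interval.

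Lactate dehydrogenase, in contrast, was shared between its 2 genes. Ldha, the subunit of the muscle type, stood at 203 CPM in A and 175 in B, and Ldhb, the subunit of the heart type, at 69.4 and 77.7. Per length Ldhb over Ldha was 0.820 (95% interval 0.343 to 1.96), so these data did not separate them. Ldha took 58.2% and 51.7% of the summed length-scaled level, Ldhb 41.8% and 48.3%, and Ldhc was listed at 0. As counts without the length correction Ldha was higher (log2 ratio of -1.36, interval -2.62 to -0.11), so the comparison turns on exon length. Of the monocarboxylate transporters, which move lactate and pyruvate, Slc16a7 stood at 29.2 and 28.5 CPM and Slc16a1 at 2.15 and 8.88. Slc16a7 over Slc16a1 was 2.43-fold per length (0.831 to 7.13), 4.95-fold in A and 1.20-fold in B, and the interval did not separate them. Without the length correction it did, at a log2 ratio of 2.70, and so did library A alone, at 2.31.

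Among the genes of pyruvate entry, Dld (393 in A and 249 in B) and Dlat (177 and 147) had the highest length-scaled levels. Dld, the dihydrolipoamide dehydrogenase shared by several complexes, stood at 265 and 167 CPM, and Dlat, the acetyltransferase core, at 158 and 131. The subunits of the first enzyme, Pdha1 and Pdhb, stood at 38.1 and 78.2 CPM and at 48.4 and 67.5 CPM, with a ratio per length of 0.988 (95% interval 0.425 to 2.30). With the copy-free length, which changes the divisor and not the counts, the log2 ratio was -1.51, which separated them. With the longest coding transcript as length it was -0.98, which did not. Pcx, pyruvate carboxylase, which replenishes oxaloacetate, was low at 1.01 and 2.26 CPM (8 and 31 counts).

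In the TCA cycle, citrate synthase Cs (length-scaled level 291 in A and 249 in B, from 308 and 262 CPM) and the oxoglutarate dehydrogenase subunit Ogdh (163 and 182, from 162 and 181 CPM) were the highest per length in both libraries. Fh1, fumarase, stood at 33.2 and 34.3 CPM, and Mdh2, the mitochondrial malate dehydrogenase, at 45.7 and 90.3. Suclg1, the shared subunit of succinyl-CoA ligase, was low at 11.5 and 10.6 CPM. It lay below its partner Sucla2 at 0.291-fold per length (95% interval 0.105 to 0.805). That call ended with the longest coding transcript as length (log2 -1.02) and in A alone (-1.31). Both genes were free of copies, so the copy-free length (-1.0) nearly repeats the longest transcript and is no separate check. Idh3a, the catalytic subunit of the NAD-dependent isocitrate dehydrogenase, stood at 20.5 CPM in A and 65.0 in B. It lay below its partner Idh3b at 0.263-fold per length (0.110 to 0.624), at 0.107 in A and 0.642 in B, and the call ended in B alone (log2 -0.64). Against Idh3g the ratio was 0.447 (0.187 to 1.07), with 0.184 in A, which alone separated them, and 1.09 in B. These were the 2 of 16 pairs whose log2 ratio differed between the libraries with an interval that excluded 0: 2.58 (0.08 to 5.08) against Idh3b and 2.57 (0.06 to 5.08) against Idh3g.

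The malate-aspartate shuttle genes had the highest group median after creatine kinase. Mdh1, the cytosolic malate dehydrogenase, stood at 83.5 CPM in A and 171 in B. Got1 and Got2, the cytosolic and mitochondrial aspartate aminotransferases, stood at 88.8 and 150 CPM and at 125 and 118 CPM. Mdh1 exceeded Mdh2 by 2.58-fold per length (95% interval 1.10 to 6.02). This call ended without the length correction (log2 0.89), with the longest transcript (0.35), with the common dispersion and in each library alone. The copy-free length (0.33) nearly repeats the longest transcript here, as neither gene had a copy. Got1 over Got2 was 1.80-fold (0.761 to 4.27), and not separated. Its direction turned with the copy-free length (log2 -0.56) and without the length correction (-0.077), and 58.0% of the stretches of Got2 were free of copies. Ckb, the cytosolic creatine kinase that buffers ATP, stood at 176 and 243 CPM and exceeded the mitochondrial Ckmt1 by 10.9-fold per length (4.12 to 29.0).

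By role, the median length-scaled level of the 14 glycolysis members was 119 in A and 90.7 in B, and that of the 6 TCA members 61.8 and 105. Glycolysis lay above TCA by 0.95 (log2) in A and below it by a log2 ratio of -0.20 in B, so the libraries gave opposite orders. The medians for glucose uptake (30.5 and 29.9), lactate (127 and 142), pyruvate entry (68.5 and 115), the shuttle (178 and 325) and creatine kinase (332 and 461) are descriptions, with no test.

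Differences between the libraries were tested gene by gene with a two-sided exact binomial test against the gene totals, with Benjamini-Hochberg adjustment over the 14107 genes with at least 10 counts, and called at an adjusted p under 0.05 and at least 2-fold. Its p-values cover the counting error of the reads and hold no spread between libraries, so they compare 2 libraries, not conditions. By this rule 42.6% of all genes tested were called, 32.3% as higher in B and 10.3% as higher in A. Of the 34 members tested 7 were called, 5 higher in B and 2 higher in A, each below the share among all genes. The members' median log2 ratio of B over A was 0.11, against 0.53 over all genes tested. Higher in B were Pgk1 (log2 1.49, adjusted p 7.7e-92), Slc16a1 (1.82, 5.9e-10), Pdha1 (1.03, 1.19e-30), Idh3a (1.64, 2.32e-51) and Mdh1 (1.03, 2.93e-65), all by the exact test. Higher in A were Hk2 (log2 -1.78, adjusted p 3.51e-09, exact test) and Eno2 (-1.19, 5.48e-94). Marker lists differed between the libraries as well. The median CPM of A and B was 451 and 853 for ganglion cells. It was 3.16 and 6.48 for endothelial and mural cells and 19.9 and 15.8 for cycling cells. Of the ganglion cell markers, Rbpms (1554 and 1021 CPM) and Slc17a6 (1732 and 1439 CPM) were higher in A and the others in B. The sum of the endothelial and mural list, 412 and 120 CPM, was carried by the mural gene Rgs5 (342 and 82.4 CPM). The endothelial genes Pecam1 (0.632 and 2.91 CPM), Cdh5 (0.884 and 8.66 CPM) and Tek (1.64 and 8.22 CPM) were higher in B. Kdr was nearly level (4.67 and 4.73 CPM). The sum of the cycling list, 166 and 79.4 CPM, was carried by Mki67 (116 and 41.8 CPM), while Ccna2 was higher in B (11.9 and 14.6 CPM). Jam2 was higher in A, at 2344 and 1203 CPM, and the part of these differences in the members' calls was not tested. With TMM factors, which shift log2 ratios by -0.39 before the pseudocount and put the median of all genes at 0.17, 3 members were called as higher in B and 4 as higher in A, beside 22.4% and 14.8% of all genes tested. With DESeq2 size factors, where that median was 0.08, 3 and 5 members were called, beside 21% and 16.2% of all genes. The count of members higher in A was then close to the share among all genes. Pdha1 and Mdh1 were then not called, Pfkp and Dld were called as higher in A under both, and Tpi1 under the latter. The other 27 members were not called with gene totals, and the smallest log2 ratios among them were those of Got2 (-0.08), Slc16a7 (-0.03), Fh1 (0.04), Pfkm (0.05) and Slc2a3 (0.05).

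**Figure D3:**
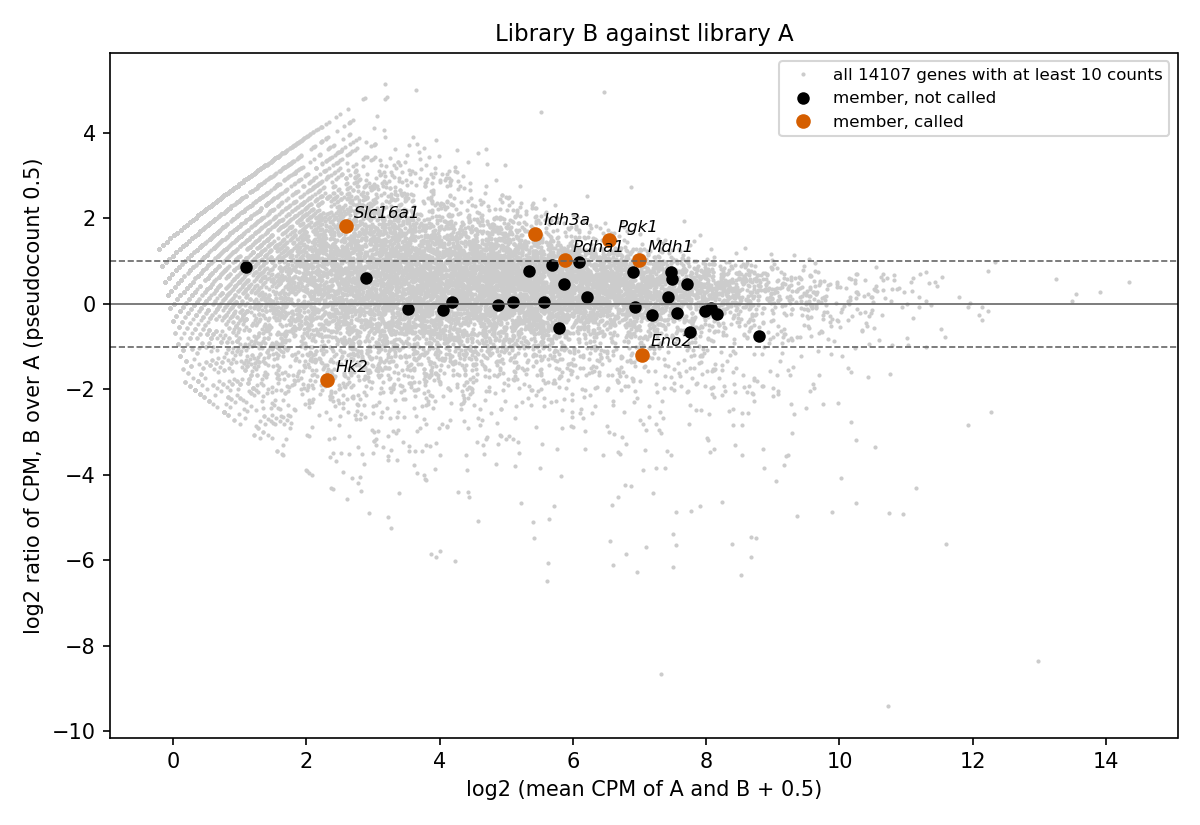
Log2 ratio of CPM, B over A, against log2 mean CPM plus 0.5 for all 14107 genes with at least 10 counts (grey) and for the members (large points, coloured where called). The members spread from -1.78 (Hk2) to 1.82 (Slc16a1), and 27 of the 34 lie within 2-fold.

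Near-identical copies elsewhere in the genome limit some of these counts, because reads that align to several places are listed apart from genes. Of the 35 members, 17 had no 50-base stretch shared with another annotated gene, and 12 had under 90% of their stretches free of copies, 7 of the 14 glycolysis members and 0 of the 6 TCA members. Gapdh had 17.5% of its stretches free of copies, with 222 other genes sharing some, 213 of them pseudogenes. Eno1 had 27.8%, Pgk1 32.0%, Got2 58.0%, Pgam1 58.5%, Pkm 69.5%, Pdhb 69.7%, Ldhb 73.0%, Ckb 78.1%, Gpi1 80.4%, Ldha 83.4% and Aldoa 86.5%. The levels of these genes are uncertain for that reason, and whether any was lowered was not tested.

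**Figure D4:**
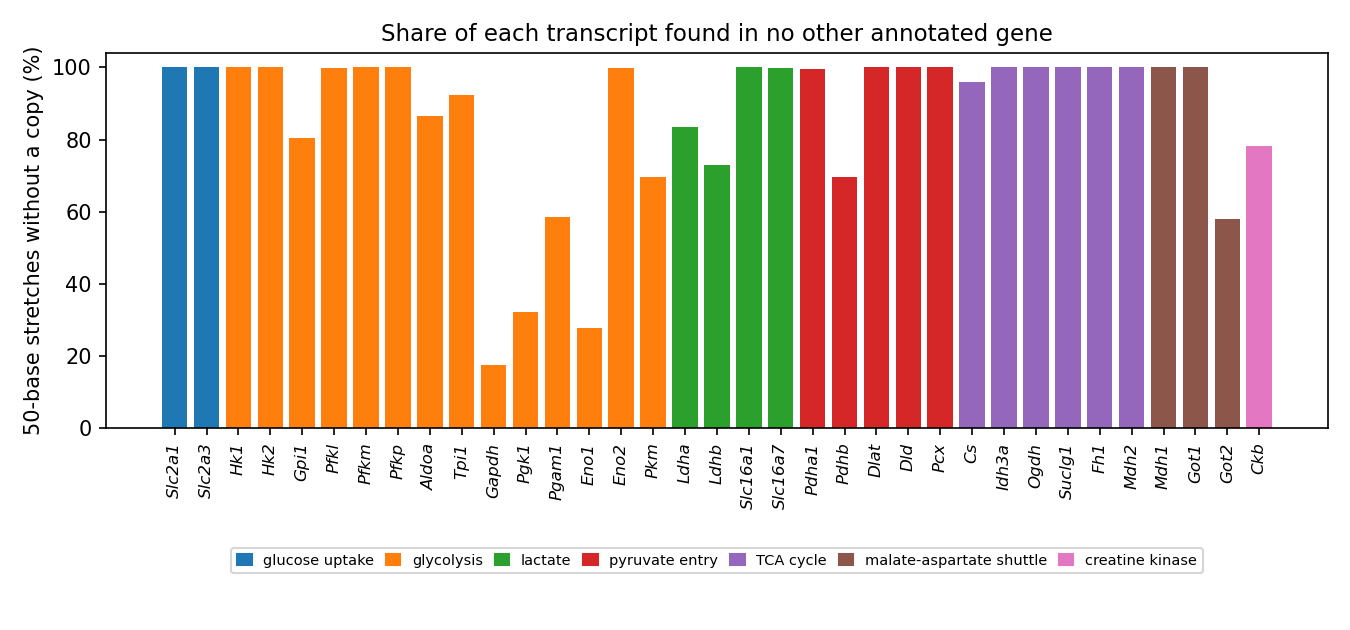
Percent of 50-base stretches of the longest coding transcript of each member that occur in no other annotated gene. Gapdh, Eno1 and Pgk1 have the lowest bars, at 17.5%, 27.8% and 32.0%, and 17 members stand at 100%.

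The other genes of the pathway, 68 in all, gave 47 detected in both libraries. Of the 57 tested 23 were called, 18 higher in B and 5 higher in A, with a median log2 ratio of 0.48. These counts are near the shares over all genes tested, 42.6% called, 32.3% higher in B and 10.3% higher in A. The highest per length was Glud1, glutamate dehydrogenase, which links glutamate to the TCA cycle, at 778 CPM in A and 350 in B (log2 -1.15). Malic enzyme Me1 was also higher in A (235 and 95.4 CPM), while Bsg, the chaperone of monocarboxylate transporters, was higher in B (76.0 and 184 CPM). Of the subunits of succinate dehydrogenase, Sdha (45.2 and 113 CPM) and Sdhd (18.2 and 38.5 CPM) were higher in B, as was the aspartate-glutamate carrier Slc25a12 (35.4 and 126 CPM). Hif1a (420 and 390 CPM), Idh1 (67.6 and 95.2 CPM) and Idh3b (129 and 68.2 CPM) were not called. The 5 genes at 0 in both libraries were Slc2a4, Ldhc, Pgk2, Fbp1 and Fbp2.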

How the data were processed

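RNA was measured in 2 single-end libraries of 1 group, sorted J-RGCs of postnatal day 6 mouse retina. For each library the authors deposited raw counts of reads by gene symbol, as whole numbers. Reads were processed with Trimmomatic 0.32, TopHat2 2.0.10 and HTSeq 0.6.1 on mm9, per the submitters' processing notes. Not given in the sources used here were the settings, the annotation and the use of strand. Reads of overlapping and antisense genes therefore cannot be told apart. The 5 summary lines of each file were kept out. The labels' replicates came from separate litters, and with 1 library on each side the p-values of their comparison cover counting error only.

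Counts were scaled by the gene total to CPM. For a gene at 0, the 3 counts that a count of 0 allows equal 0.379 CPM (A) and 0.218 CPM (B), a limit that covers counting error only. Summed exon lengths came from GENCODE M21 (GRCm38), and 23620 of 24015 symbols had one, 22709 by symbol and 911 by a RefSeq synonym. With 1 group no contrast could be tested by edgeR's quasi-likelihood test. Gene ratios per length used edgeR 4.0.16 trended dispersions with TMM factors over 11272 genes, with a 95% interval, and DESeq2 1.42.0 trends as an alternative. The libraries were compared by exact binomial tests with Benjamini-Hochberg adjustment. Log2 values used a pseudocount of 0.5. Tools were R 4.3.3, Python 3.11.15, numpy 2.4.6, pandas 2.3.3 and scipy 1.17.1. The intervals were tried on simulated counts with spread between libraries, and the library test on simulated counts with counting error only. The latter did not cover spread between libraries. Copies were searched as 50-base stretches of annotated transcripts.

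The members, pairs and lists were chosen with earlier results of these data known. All 35 members are named. Other pathway genes are named when they are isozymes of a compared step, among the 8 highest per length, or called with a mean CPM of at least 20, and some that the rule names are not reported here.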

Additional observations from a re-analysis of the deposited data

How the results depend on the processing

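Of 129 pair values under alternative settings, 106 kept their side and direction, 13 were weaker, 6 stronger and 4 reversed. The common dispersion, the DESeq2 trend and the dispersion fit without expression filter change the interval only, so the direction could not turn there. For pairs without copies the copy-free length nearly repeats the longest transcript. The number of separated pairs was 10, and ranged from 7 without replicate A to 11 without the length correction. Leaving out a library moved the Hk1 over Hk2 log2 ratio between 1.51 and 4.30, and glycolysis over TCA between -0.20 and 0.95, a change of order. Without the length correction Ldhb over Ldha was -1.36, past the threshold. The members called as higher in B and in A, 5 and 2 with gene totals, were 3 and 4 with TMM factors and 3 and 5 with DESeq2 size factors, as both scalings shift ratios toward A, beside 22.4% and 14.8% of all genes with TMM and 21% and 16.2% with DESeq2. With each, 5 of the 7 stayed called, and Pdha1 and Mdh1 were lost. Reversed were Pdha1 over Pdhb (-0.29 in A and 0.26 in B) and Idh3a over Idh3g (0.12 without A, -2.45 without B). Got1 over Got2 was reversed too (-0.077 without the length correction, -0.56 with the copy-free length). The cause was not tested. The alternative with stretches found once in the genome was not run, and annotated transcripts were used in its place, chosen after seeing the data, as was the sum of Eno1 and Eno1b (log2 7.31 for Eno2 over both). With 2 libraries the spread between litters is poorly known, and genes of few counts, such as Eno1, are the least precise.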

Other observations

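Kinase families that regulate glycolysis and pyruvate entry are given here, chosen after their values were seen. Of the kinase-phosphatases that set fructose-2,6-bisphosphate, Pfkfb2 stood at 18.9 CPM in A and 28.2 in B, Pfkfb3 at 19.2 and 32.0, Pfkfb4 at 1.89 and 2.69, and Pfkfb1 at 17.9 and 1.89, the last called as higher in A by the exact test of the libraries. Of the pyruvate dehydrogenase kinases, which switch the complex off, Pdk1 stood at 23.5 and 30.0 CPM, Pdk2 at 16.2 and 21.1, and Pdk3 at 2.91 and 13.0, the last called as higher in B. Pdk4 had 1 count in each library, too few to test.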
